A study of Mus musculus with 20 samples.

Results

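Dnmt1 and the 3 Tet genes, which write and oxidise methylated cytosine in DNA, were followed through mouse preimplantation development in 6 probe sets. They are 4 of the 9607 genes that have a probe set with 1 gene name. The probe sets are all those that the platform's gene annotation assigns to them, out of 22511 probe sets other than controls, and none carries a second gene name. There is 1 probe set for Dnmt1 (1447877_x_at), 2 for Tet1 (1455425_at and 1429448_s_at), 2 for Tet2 (1455300_at and 1438781_at) and 1 for Tet3 (1439324_at). An s_at or x_at ending marks a design whose probes can match more than 1 transcript, and for x_at also unrelated ones, so the Dnmt1 values rest on a probe set that can pick up other RNAs. The arrays, Affymetrix MOE430B, measured 5 groups of 4 samples each: oocytes, 1-cell embryos, 2-cell embryos, 8-cell embryos and blastocysts. The labels give no strain, treatment, maturation state or hours after fertilization, and all samples share the same 2 rounds of amplification of total RNA by in vitro transcription. Values are linear intensities, which the authors had scaled so that every array has the same trimmed mean.

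DNMT1 copies methylation onto the new DNA strand after replication, with UHRF1 as its guide, and the oocyte makes its own form of the enzyme from an upstream first exon. TET1, TET2 and TET3 are dioxygenases that oxidise 5-methylcytosine to 5-hydroxymethylcytosine and further products, which are diluted by replication or removed by base excision repair. After fertilization much of the methylation brought by sperm and egg is lost before implantation, while imprinted regions keep theirs. TET3 is known as the maternal enzyme that oxidises the paternal genome of the zygote, and TET1 and TET2 as the enzymes of the inner cell mass and of embryonic stem cells.

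The enzymes act on cytosine in CpG dinucleotides, and the promoters of the 4 genes themselves differ widely in how many of these they hold. The sequences are from RefSeq on build GRCm38.p6, are the 250 bases before an annotated start on the minus strand, and are shown 5′ to 3′ with each CpG in capitals. They are shown because Dnmt1 has 3 annotated starts, which the arrays do not distinguish, and because Tet1 and Tet2 both rise below. The Dnmt1 windows belong to the most upstream start (chr9:20959889-20960138) and to the next, 6909 bases downstream of it (chr9:20952980-20953229). The Tet1 window is chr10:62887325-62887574 and the Tet2 window chr3:133544391-133544640.
Dnmt1 upstream start: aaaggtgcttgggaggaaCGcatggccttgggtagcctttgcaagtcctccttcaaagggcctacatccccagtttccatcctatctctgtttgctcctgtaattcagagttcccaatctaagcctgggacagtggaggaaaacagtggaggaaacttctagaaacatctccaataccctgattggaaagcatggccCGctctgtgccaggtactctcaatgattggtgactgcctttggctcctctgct
Dnmt1 next start: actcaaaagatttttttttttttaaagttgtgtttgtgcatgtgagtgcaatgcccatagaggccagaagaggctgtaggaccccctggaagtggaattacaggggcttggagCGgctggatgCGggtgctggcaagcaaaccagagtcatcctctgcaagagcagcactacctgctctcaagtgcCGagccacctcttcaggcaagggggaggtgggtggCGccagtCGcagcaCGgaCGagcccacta
Tet1: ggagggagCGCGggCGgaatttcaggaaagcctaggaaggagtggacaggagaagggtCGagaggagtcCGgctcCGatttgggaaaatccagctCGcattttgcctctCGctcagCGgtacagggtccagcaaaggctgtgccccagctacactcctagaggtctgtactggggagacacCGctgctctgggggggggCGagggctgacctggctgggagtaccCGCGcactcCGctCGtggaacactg
Tet2: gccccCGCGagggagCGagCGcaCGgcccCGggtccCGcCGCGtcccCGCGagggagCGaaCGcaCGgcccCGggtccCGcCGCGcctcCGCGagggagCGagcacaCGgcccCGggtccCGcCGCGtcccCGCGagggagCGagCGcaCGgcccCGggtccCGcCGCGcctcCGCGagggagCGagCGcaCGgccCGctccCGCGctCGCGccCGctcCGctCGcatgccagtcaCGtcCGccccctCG
The upstream Dnmt1 window holds 2 CpG and the next one 7, against a median of 6 over 32851 RefSeq promoter windows of this length. The third Dnmt1 start, 7265 bases from the first, has 26 CpG before it. Tet1 has 15, Tet3 17 (chr6:83441679-83441928) and Tet2 51, more than 99.9% of all windows. The GC box GGGCGG, searched on both strands and itself containing a CpG, occurs in 32.7% of all windows, in those of Tet1, Tet2 and Tet3, and before the third Dnmt1 start. The motif CCAAT, also searched on both strands, occurs in 33.8% of all windows, 4 times before the upstream and 3 times before the third Dnmt1 start, once for Tet3, and in neither Tet1 nor Tet2. Such a match describes letters and is not evidence of a bound factor.

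All 6 probe sets passed the filter on low values, which asked for an intensity of at least 82.6, the median of the whole table, on at least 4 of the 20 arrays. Of the 15234 probe sets that passed, 53% differed between at least some stages at an adjusted p under 0.05 (moderated F test of limma), and so did all 6 probe sets of these genes, with adjusted p-values between 2.65e-13 for Tet1 1455425_at and 0.000231 for Tet3. Changes are given on the log2(intensity + 20) scale, which understates the change of low values, and p-values are adjusted over all tested probe sets by Benjamini-Hochberg. Nothing in the labels tells whether a stage's 4 samples are separate collections of embryos, and p-values therefore reflect the spread among these arrays alone, possibly a technical one. The table has no detection calls, so low intensities cannot be set apart from background. Because each array was scaled to the same mean, an intensity is a share of the array's signal, and fewer cells with a transcript and less of it per cell cannot be told apart.

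Few markers of the labelled stages were measured. The 4 of 14 oocyte markers with a probe set, Bmp15, Zar1, Ooep and Oosp3, summed to between 56733 and 72009 on the oocyte and 1-cell arrays and to at most 3068 on the 8-cell and blastocyst arrays. The 3 of 13 blastocyst markers, Gata6, Pdgfra and Epcam, summed to between 2677 and 4284 in blastocysts, between 1315 and 1693 at the 8-cell stage and at most 514 in oocytes and 1-cell embryos. Epcam made up most of the blastocyst sum, and Gata6 read 568 ± 92.2 at the 8-cell stage and 415 ± 108 in blastocysts (SD, n = 4). The 5 of 13 cumulus and granulosa markers summed to between 900 and 1333 in oocytes, 1-cell embryos and blastocysts, to between 1400.2 and 1994 at the 8-cell and to between 2598 and 3232 at the 2-cell stage, where Amhr2, an x_at probe set, gave 2053 ± 284 (SD, n = 4). None of these 5 was at 0 and the lowest was Ptx3, at no more than 102 on any array. The 3 of 10 sperm markers summed to between 241 and 844 over all stages, and Ptprc, the 1 of 6 blood markers, read at most 76.8. The 18S ribosomal RNA control read between 32272 and 42929 on the 1-cell arrays and between 398 and 3808 on all others. The log2 ratio of the 3′ to the 5′ beta-actin control lay between 1.43 and 2.64 through the 8-cell stage and between 0.68 and 1.25 in blastocysts. The same ratio for Gapdh lay between 0.68 and 1.57 on the 8-cell arrays, the stage at which Tet2 rose and Dnmt1 was lowest, and between 1.75 and 2.88 at the other stages. The part that 18S signal, RNA integrity or the 2-cell Amhr2 signal had in the results below was not tested.

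Dnmt1, the maintenance methyltransferase, was highest in oocytes and fell over the 3 steps to the 8-cell stage. The 4 oocyte arrays read 7835, 8775, 10181 and 9244, a mean of 9009 ± 976 (SD, n = 4). The 1-cell arrays read 2788, 2486, 2747 and 2403. The 2-cell arrays read 875, 424, 748 and 240. Every oocyte array was thus above every 1-cell array, and every 1-cell array above every 2-cell array, with the 2-cell arrays the first to differ widely among themselves. The 8-cell arrays read 73.0, 296, 243 and 101, and the blastocyst arrays 425, 394, 278 and 151. These last groups overlapped with each other and in part with the 2-cell arrays.

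Relative to the oocyte mean, the mean of Dnmt1 was 28.9% in 1-cell embryos and 6.34% in 2-cell embryos. It was 1.98% in 8-cell embryos and 3.46% in blastocysts. The fall to the 1-cell stage was 1.78 log2 units, a change of -1.78 ± 0.36 (SE; adjusted p = 0.00194). It went together with the rise of the 18S control given above. The next change, from 1-cell to 2-cell, was -2.30 ± 0.36 (adjusted p = 2.63e-05). From 2-cell to 8-cell it was -1.60 ± 0.36 (adjusted p = 0.00134), although 8-cell replicates 2 and 3 lay above 2-cell replicate 4. Dnmt1 thus fell before, across and after the 2-cell stage, at which the embryonic genome is known to become active in the mouse.

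The 8-cell to blastocyst change of Dnmt1 was 0.83 (95% interval 0.09 to 1.57) and did not pass (adjusted p = 0.137). It passed without 8-cell replicate 2 (1.12, adjusted p = 0.0463) or without blastocyst replicate 4 (1.12, adjusted p = 0.0432). In the order of levels, from oocyte over 1-cell, 2-cell and blastocyst to 8-cell, the oocyte differed from the 1-cell and the 1-cell from the 2-cell stage. The blastocyst level did not pass against the 2-cell level (-0.77, adjusted p = 0.117, where 29.9% of all probe sets passed), nor against the 8-cell level. From oocyte to blastocyst the net change was -4.85 ± 0.36 (adjusted p = 6.26e-11), a 28.9-fold lower level on this scale.

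**Figure D1:**
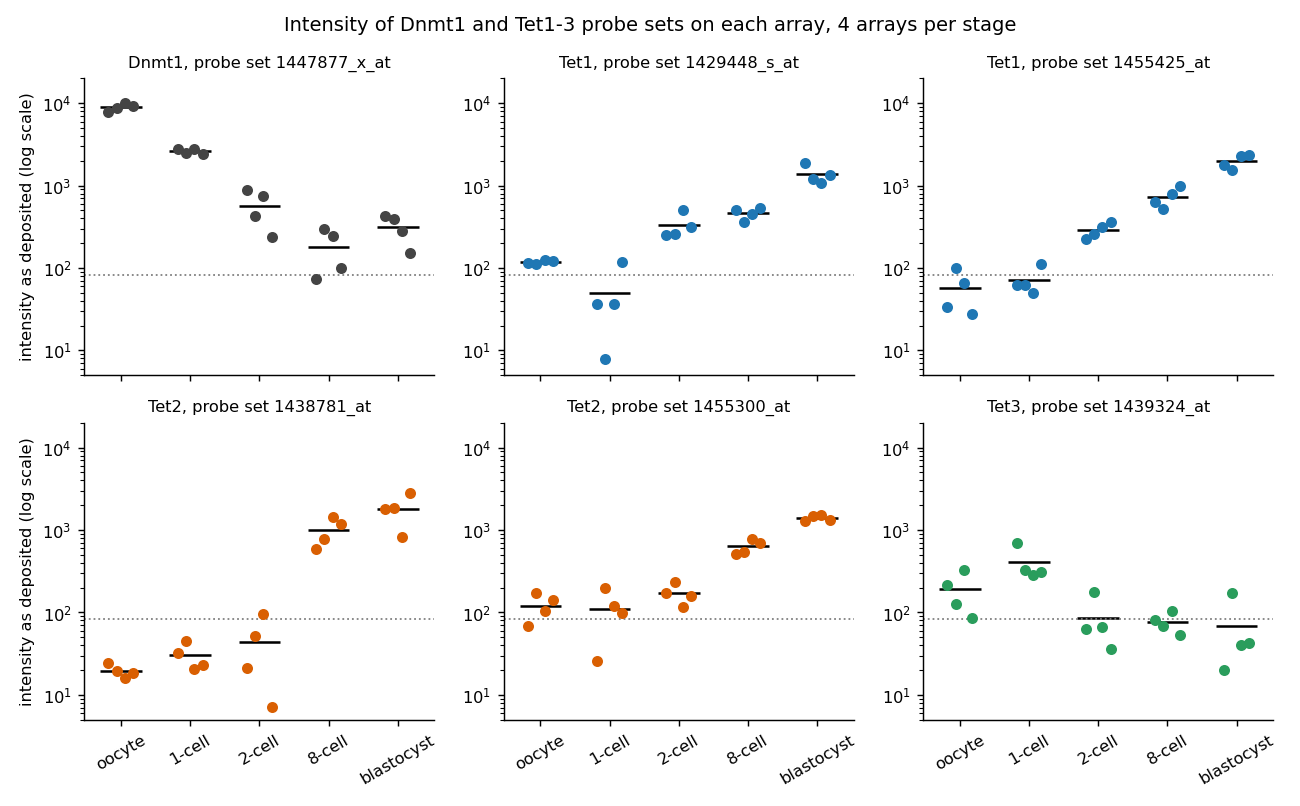
Intensity of each of the 6 probe sets on every array (points; log axis) at the 5 stages, 4 arrays each in order of replicate number, with the arithmetic mean as a horizontal line and the table's median of 82.6 as a dotted line. Dnmt1 falls from a mean of 9009 in oocytes to 178 at the 8-cell stage, both probe sets of Tet1 and of Tet2 are highest in blastocysts, and Tet3 is highest at the 1-cell stage.

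Tet1 rose from the 2-cell stage onwards in its main probe set, 1455425_at, the one with the higher mean that is not of the x_at type. In oocytes it read 34.0, 101, 65.5 and 27.6. At the 1-cell stage it read 62.6, 61.4, 49.8 and 112. In both stages only 1 of the 4 arrays reached the table's median, and the groups overlapped. The 2-cell arrays read 224, 260, 318 and 362 and the 8-cell arrays 627, 523, 795 and 997. The blastocyst arrays read 1797, 1554, 2278 and 2358. From the 2-cell stage on, every array of a stage lay above every array of the stage before it.

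The oocyte to 1-cell change of Tet1 1455425_at was 0.30 ± 0.27 (SE) and did not pass (adjusted p = 0.649). The 3 later changes passed, at 1.79 ± 0.27 to the 2-cell stage (adjusted p = 1.85e-05), 1.26 ± 0.27 to the 8-cell stage (adjusted p = 0.000889) and 1.44 ± 0.27 to the blastocyst (adjusted p = 0.000464). Each is between 2.4-fold and 3.45-fold. The net change from oocyte to blastocyst was 4.79 ± 0.27 (adjusted p = 4.44e-13). All neighbours in its order of levels, other than oocyte and 1-cell, differed beyond their spread.

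The other Tet1 probe set, 1429448_s_at, also rose at the 2-cell and blastocyst steps, was called lower at the 1-cell step and did not pass at the 8-cell step. It read 115, 111, 124 and 122 in oocytes, with an SD of 6.13. The 1-cell arrays read 36.1, 7.8, 36.1 and 118, so that replicate 4 was within the oocyte range. This 1-cell fall was called at -1.23 ± 0.32 (adjusted p = 0.016), but not without 1-cell replicate 2 (-0.86, adjusted p = 0.0868), with a pseudocount of 80 (-0.68, adjusted p = 0.052) or in a fit of the 2 stages alone (adjusted p = 0.111). At the 2-cell stage the probe set rose to 333 ± 117 (n = 4), a change of 2.53 ± 0.32 (adjusted p = 1.11e-06). The 8-cell arrays, at 511, 365, 456 and 534, did not pass against the 2-cell level (0.50, 95% interval -0.15 to 1.15, adjusted p = 0.269). The blastocyst level of 1385 ± 352 did pass against the 8-cell level (1.51, adjusted p = 0.00133).

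Tet2 was low through the 2-cell stage and rose between the 2-cell and 8-cell stages in both probe sets. The main one, 1455300_at, read 68.0, 170.0, 105 and 141 in oocytes. In 1-cell embryos it read 25.6, 196, 119 and 99.2. In 2-cell embryos it read 173, 233, 118 and 160.3. These 3 groups overlapped throughout. The 8-cell arrays read 518, 539, 790.1 and 695, all above the 2-cell arrays. The blastocyst arrays read 1306, 1467, 1514 and 1308, all above the 8-cell arrays.

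The rise of Tet2 1455300_at to the 8-cell stage was 1.79 ± 0.32 (SE; adjusted p = 0.000129). The rise to the blastocyst was 1.13 ± 0.32 (adjusted p = 0.0184), and it no longer passed when 8-cell replicate 1 was left out (1.04, adjusted p = 0.0594), or when replicate 2 of that stage was (1.06, adjusted p = 0.0536). The earlier changes did not pass, at -0.26 to the 1-cell stage (adjusted p = 0.77) and 0.72 to the 2-cell stage (adjusted p = 0.124). Without 1-cell replicate 2, which read 196, the 2-cell change came to 1.04 and passed (adjusted p = 0.0212). Blastocyst and 8-cell levels stood apart from each other and from the rest, and the order of the 3 earliest stages was not resolved. The net change was 3.39 ± 0.32 (adjusted p = 5.78e-09).

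The other Tet2 probe set, 1438781_at, also had its main change at the step to the 8-cell stage. It read 24.1, 19.3, 16.0 and 18.5 in oocytes and 32.6, 45.3, 20.5 and 23.3 at the 1-cell stage. The 2-cell arrays read 20.9, 51.9, 94.6 and 7.2. Only 1 array of these 12 reached the table's median. The 8-cell arrays then read 581, 781, 1452 and 1200.0, a change of 4.13 ± 0.38 (SE; adjusted p = 5.65e-09), and the blastocyst arrays 1781, 1830.1, 819 and 2820.1. The last change, 0.80 (95% interval 0.01 to 1.59), did not pass (adjusted p = 0.185), and the groups overlapped, with blastocyst replicate 3 below 2 of the 8-cell arrays. From oocyte to blastocyst this probe set changed by 5.41 ± 0.38 (adjusted p = 2.39e-11).

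Tet3 was the member whose level was highest in the 1-cell embryo. Its oocyte arrays read 215, 127, 332 and 86.6, and its 1-cell arrays 690.3, 329, 287 and 311. The groups overlapped through oocyte replicate 3, and the rise of 1.07 ± 0.44 (SE, 95% interval 0.15 to 1.98) did not pass (adjusted p = 0.181). The 2-cell arrays read 62.5, 175, 67.2 and 36.5, all below the 1-cell arrays. This fall was called, at -2.08 ± 0.44 (adjusted p = 0.000984), a 4.22-fold lower level. It kept its call without 1-cell replicate 1, the array at 690.3, and without each other array in turn (-2.43 to -1.80, adjusted p at most 0.00689).

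After the 2-cell stage Tet3 stayed low and did not pass at either step. The 8-cell arrays read 81.1, 67.6, 104 and 53.0 and the blastocyst arrays 19.8, 171, 40.4 and 43.2. Only 1 array of each of the last 3 stages reached the table's median. The changes were 0.0032 (95% interval -0.91 to 0.92, adjusted p = 0.997) and -0.36 (95% interval -1.28 to 0.55, adjusted p = 0.67). The oocyte to blastocyst fall of 1.37 log2 units, a change of -1.37 ± 0.44 (adjusted p = 0.0164), was no longer called without oocyte replicate 3 (-1.07, adjusted p = 0.0798), nor when blastocyst replicate 1 was left out (-1.08, adjusted p = 0.0734). In the order of levels on the log2 scale, 1-cell, oocyte, 8-cell, 2-cell and blastocyst, no stage passed against the next, and the oocyte against the 8-cell level came to an adjusted p of 0.0749, where 40% of all probe sets passed. The 1-cell level did differ from the 8-cell level (adjusted p = 0.000463), as did 40.9% of all probe sets, and from the blastocyst level (adjusted p = 7.64e-05), as did 39.5%.

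**Figure D2:**
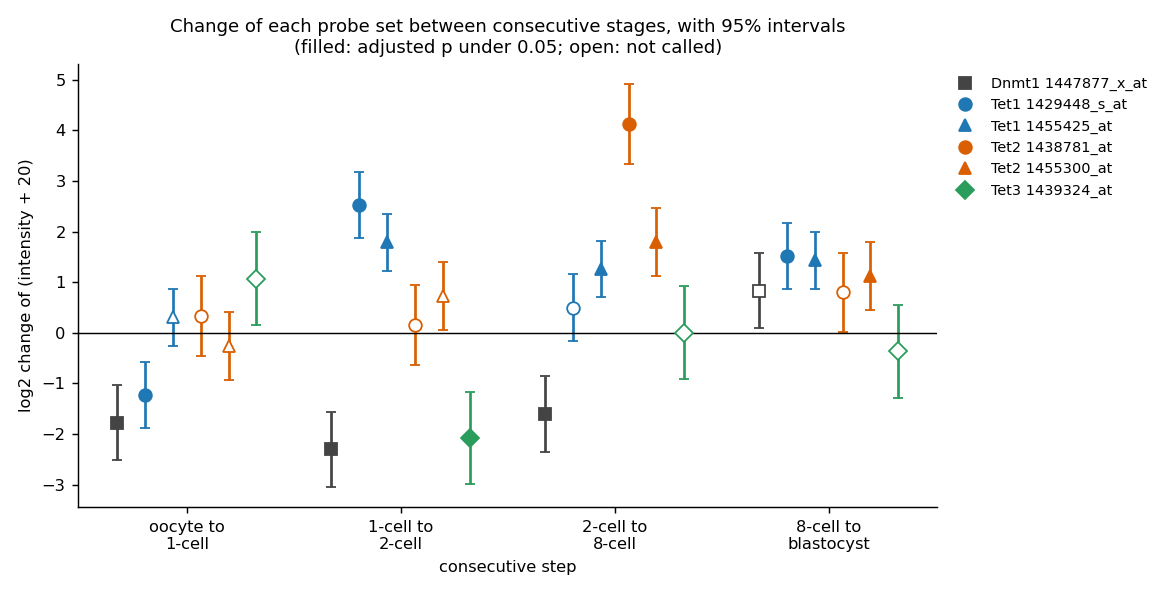
Log2 change of each probe set over the 4 consecutive steps with its 95% interval from the fit over all 20 arrays; filled symbols passed at an adjusted p under 0.05. Falls of Dnmt1 (-1.78, -2.30 and -1.60) stand beside rises of Tet1 from the 2-cell stage and of Tet2 at the 8-cell stage, and the largest change is that of Tet2 1438781_at, 4.13.

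Set against all tested probe sets, the steps gave these counts. From oocyte to 1-cell 2 of the 6 probe sets fell, Dnmt1 and Tet1 1429448_s_at, and none rose, where 6.93% of all 15234 probe sets changed (2.67% rose and 4.26% fell). To the 2-cell stage both Tet1 probe sets rose and Dnmt1 and Tet3 fell, against 21.5% of all (12.2% up, 9.34% down). To the 8-cell stage both Tet2 probe sets and Tet1 1455425_at rose and Dnmt1 fell, against 27.5% of all (14.1% up, 13.4% down). To the blastocyst both Tet1 probe sets and Tet2 1455300_at rose, against 14.6% of all (7.98% up, 6.58% down). From oocyte to blastocyst 4 rose and 2 fell, against 37.7% of all (21.6% up, 16.1% down). The median change of all tested probe sets lay between -0.07 and 0.10 over the consecutive steps and was 0.12 from oocyte to blastocyst. Centring each array on the median of its tested probe sets moved that last value to -0.03. Centring on the median of all probe sets other than controls turned no called change of these genes. Whether Tet1 and Tet2, or Dnmt1 and Tet3, differ from each other in the timing of their changes was not tested.

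The 2 probe sets of Tet1, and those of Tet2, followed the same broad course. Over the 20 arrays, which share their 5 stages, the correlation of log2 values was 0.914 for Tet1 and 0.911 for Tet2. Once the stage means were taken out, the arrays' deviations correlated at 0.37 for Tet1 and 0.02 for Tet2. Between the genes the main probe sets of Tet1 and Tet2 correlated at 0.909, and that of Tet1 at -0.86 with Dnmt1.

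Unequal change of a pair of probe sets was tested as the shift, from stage to stage, of their difference within each array, by a 2-sided exact permutation test of 4 against 4 arrays. The smallest p this allows is 0.0286, and 8 such tests were made. For Tet1 the difference of 1455425_at minus 1429448_s_at shifted by 1.53 log2 units from oocyte to 1-cell and by 0.76 from 2-cell to 8-cell. For Tet2 the difference of 1455300_at minus 1438781_at shifted by -2.34 from 2-cell to 8-cell. These 3 shifts each separated all 4 arrays of a stage from all 4 of the other (exact p = 0.0286) and had an adjusted p of 0.0763. With this floor, at least 5 of the 8 tests would have to reach it before any could pass, so the adjusted test could not settle these 3. The other 5 had exact p-values of 0.0857 or more. No pair was called in opposite directions at any consecutive step.

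**Figure D3:**
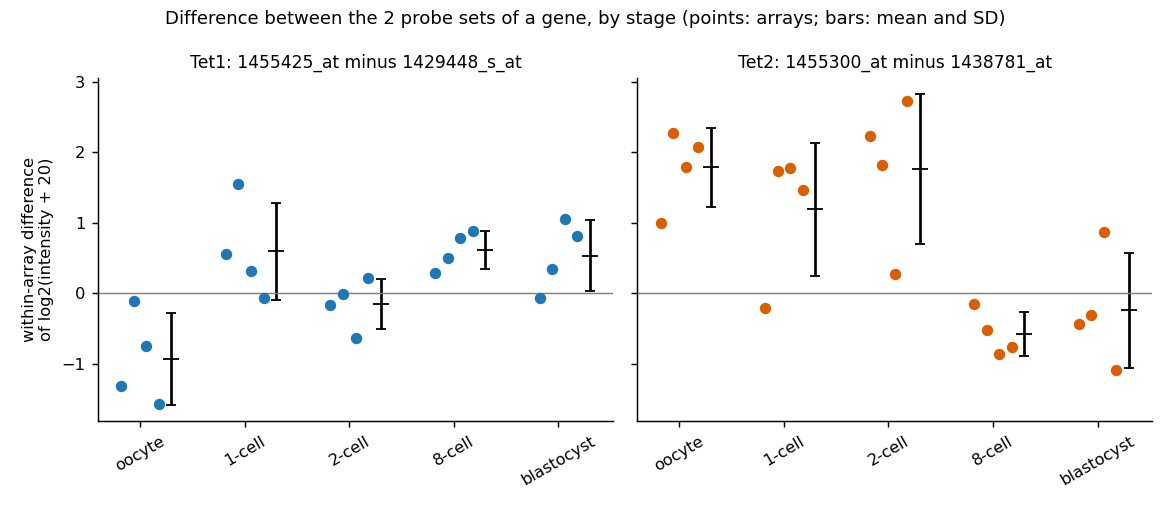
Within-array difference of log2(intensity + 20) between the 2 probe sets of Tet1 (left) and of Tet2 (right), by stage; points are arrays, bars the mean and SD of 4. The absolute difference has no meaning because probe sets bind with different strength, and what is compared is its shift, such as that of Tet2 from 1.76 ± 1.06 at the 2-cell to -0.58 ± 0.31 at the 8-cell stage.

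The genes whose course over the 20 arrays was most like that of a member were named by Pearson's r of log2 values, as a description. For Dnmt1 they were Cep95 (r = 0.953), a centrosomal gene, Bend5 (r = 0.95) and Senp8 (r = 0.945), which encodes a protease for NEDD8. Cep95 read 1691 ± 146, 1163 ± 142, 323 ± 30.2, 122 ± 37.5 and 152 ± 64.9 through the 5 stages. For Tet1 they were Iws1 (r = 0.963), a transcription elongation factor, Ttll12 (r = 0.959) and the ubiquitin ligase gene Ubr3 (r = 0.957). Iws1 went from 84.7 ± 24.5 in oocytes to 574 ± 96.3 in blastocysts. For Tet2 they were Tns3 (r = 0.954), a tensin of cell adhesion, the kinase gene Gsk3b (r = 0.951) and Naa25 (r = 0.948), of an N-terminal acetyltransferase. Tns3 read 409 ± 33.9 at the 2-cell, 2168 ± 367 at the 8-cell and 4367 ± 1183 at the blastocyst stage. For Tet3 the values were lower: Fbxo5, an inhibitor of the anaphase-promoting complex (r = 0.848), a probe set of Usp7 (r = 0.847) and Acoxl (r = 0.845). Acoxl read 225 ± 91.7 in oocytes, 571 ± 103 in 1-cell and 14.9 ± 6.59 in 2-cell embryos.

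Of 85 other genes of DNA methylation in 6 lists, 29 had a probe set with 1 gene name. Of these, 26 were measured, each counted by its brightest probe set. No gene of the list of other methyltransferases (Dnmt3a, Dnmt3b, Dnmt3c, Dnmt3l and Trdmt1), and not Uhrf1, Tdg or Dppa3, was among them, and they are not analysed here. From oocyte to 1-cell 3 of the 26 rose and 1 fell, where 6.93% of all tested probe sets changed. To the 2-cell stage 3 rose and 8 fell, against 21.5% of all, with a median change of -0.17 against 0.07 over all. To the 8-cell stage 6 rose and 4 fell, against 27.5% of all, and to the blastocyst again 6 and 4, against 14.6%. At the 8-cell step the number called went from 10 to 6 without 8-cell replicate 2.

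Among 5 measured partners of maintenance methylation, 1 fell and none rose at the 1-cell stage, where 6.93% of all tested probe sets changed. At the 2-cell step 2 rose, Hells and Uhrf2, and none fell, against 21.5% of all. The second Hells probe set did not pass there (0.32, adjusted p = 0.582). Usp7 counted as not called in its brightest probe set. Its 1437118_at (-1.01, adjusted p = 0.00181), 1454948_at (-0.52, adjusted p = 0.0395) and 1454949_at (-0.75, adjusted p = 0.0282) were called lower there. Usp7 1438249_at did not pass (0.48, adjusted p = 0.0896). At the 1-cell step 1454948_at was the only Usp7 probe set called, as a rise (0.83, adjusted p = 0.00339). In 8-cell embryos 1 rose and 2 fell, Usp7 and Uhrf2, against 27.5% of all. In the blastocyst 3 rose and none fell, with a median change of 1.07, where 14.6% of all tested probe sets changed. Hdac2, a deacetylase that binds DNMT1, fell from 2570 ± 52.9 to 1424 ± 219 at the 1-cell stage (adjusted p = 0.00931) and rose from 2384 ± 599 to 4963 ± 422 in the blastocyst (adjusted p = 0.000493). Hells, a chromatin remodeler needed for methylation of repeats, rose from 251 ± 69.9 to 544 ± 106 at the same step (adjusted p = 0.000319). Uhrf2, a paralog of UHRF1, rose too, from 95.9 ± 41.2 to 278 ± 51.0 (adjusted p = 0.0248). Second probe sets did not pass there for Hells (0.34, adjusted p = 0.593) or Hdac2 (-0.04, adjusted p = 0.957). The second Hdac2 probe set did not pass in the 1-cell fall either (-0.82, adjusted p = 0.116), and both rose at the 8-cell step (0.79, adjusted p = 0.00523, and 1.22, adjusted p = 0.00301). Dnmt1 itself fell at the 8-cell step (-1.60, adjusted p = 0.00134) and did not pass from 8-cell to blastocyst (0.83, adjusted p = 0.137).

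Among 5 genes that protect imprints or methylation, 2 fell and 1 rose at the 2-cell stage, where 21.5% of all tested probe sets changed. At the 8-cell stage 2 rose and 1 fell, against 27.5% of all. The median changes at these 2 steps were -0.40 and 0.09, against 0.07 and 0.10 over all. At the 1-cell stage 1 rose and none fell, against 6.93%, and in the blastocyst 2 fell and none rose, against 14.6%. Smchd1 was among those that fell at the 2-cell stage and in the blastocyst and among those that rose at the 8-cell stage. Its second probe set did not pass at the 2-cell (0.24, adjusted p = 0.659), 8-cell (0.11, adjusted p = 0.831) or blastocyst step (-0.19, adjusted p = 0.766). Kdm1b, a histone demethylase needed in the oocyte to set maternal imprints, fell from 2932 ± 596 to 940 ± 161 at the 2-cell stage (adjusted p = 2.03e-06) and to 154 ± 36.9 at the 8-cell stage (adjusted p = 1.45e-09). Its change from oocyte to 1-cell, where Dnmt1 fell, did not pass (0.23, adjusted p = 0.664). Trim28, the corepressor that keeps imprints through zinc finger proteins, rose from 2668 ± 448 to 8735 ± 935 at the 8-cell stage (adjusted p = 1.4e-08) in an x_at probe set. Rif1 rose from 1844 ± 157 to 4230 ± 593 at the 1-cell stage (adjusted p = 1.41e-05) and fell from 2793 ± 457 to 1393 ± 118 in the blastocyst (adjusted p = 6.41e-05), with its second probe set passing only in the blastocyst among the consecutive steps.

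Of 8 measured genes of oxidation and repair, 1 rose and none fell at the 1-cell stage, where 6.93% of all tested probe sets changed. At the 2-cell stage 2 fell and none rose, against 21.5% of all. The median changes at these 2 steps were 0.04 and 0.05, against 0.02 and 0.07 over all. At the 8-cell and blastocyst steps they were -0.01 and -0.30, against 0.10 and -0.07 over all. To the 8-cell stage 1 rose and none fell, against 27.5%, and to the blastocyst 2 rose and none fell, against 14.6%. The 8-cell rise was that of Wdr76 in its brightest probe set, 1455674_at (0.74, adjusted p = 0.0468). Wdr76 1430304_at was called in the opposite direction at that step (-1.19, adjusted p = 0.000862). Smug1, a DNA glycosylase for oxidised pyrimidines and uracil, rose from 1614 ± 228 in oocytes to 2674 ± 256 in 1-cell embryos (adjusted p = 0.00321) and fell to 542 ± 76.8 in 2-cell embryos (adjusted p = 4.89e-11). Tet3 also had its highest level at the 1-cell stage and fell at the next. Unlike that of Smug1, its rise from oocyte to 1-cell did not pass (1.07, adjusted p = 0.181). Of 7 readers of CpG, none was called at the 1-cell step, against 6.93% of all tested probe sets. To the 8-cell stage 1 rose and 1 fell, against 27.5%, and to the blastocyst 1 rose and 2 fell, against 14.6%. At the 2-cell stage 3 of the readers fell and none rose, where 21.5% of all changed and 9.34% fell. Kdm2a, a reader counted as not called, has further tested probe sets. Of these, 1438890_at was called higher at the 2-cell step (1.07, adjusted p = 0.0124) and 1455942_at at the 8-cell step (0.75, adjusted p = 0.0308). No other Kdm2a probe set was called at these steps. The median change of the readers at the 2-cell stage was -0.64, against 0.07 over all. Kdm2b, a histone demethylase that binds unmethylated CpG, fell there from 11522 ± 2050 to 4526 ± 731 (adjusted p = 2.9e-05), rose to 9381 ± 845 at the 8-cell stage (adjusted p = 0.00039) and fell to 3928 ± 795 in the blastocyst (adjusted p = 0.000105). Mtr, methionine synthase and the 1 measured gene of methyl donor metabolism, went from 282 ± 42.8 in oocytes to 520 ± 94.8 (adjusted p = 0.00702), 155 ± 55.2 (adjusted p = 4.02e-07) and 396 ± 49.9 (adjusted p = 1.2e-05) over the next 3 stages. Among the consecutive steps, its second probe set passed only in the fall at the 2-cell stage (adjusted p = 0.00222).

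**Figure D4:**
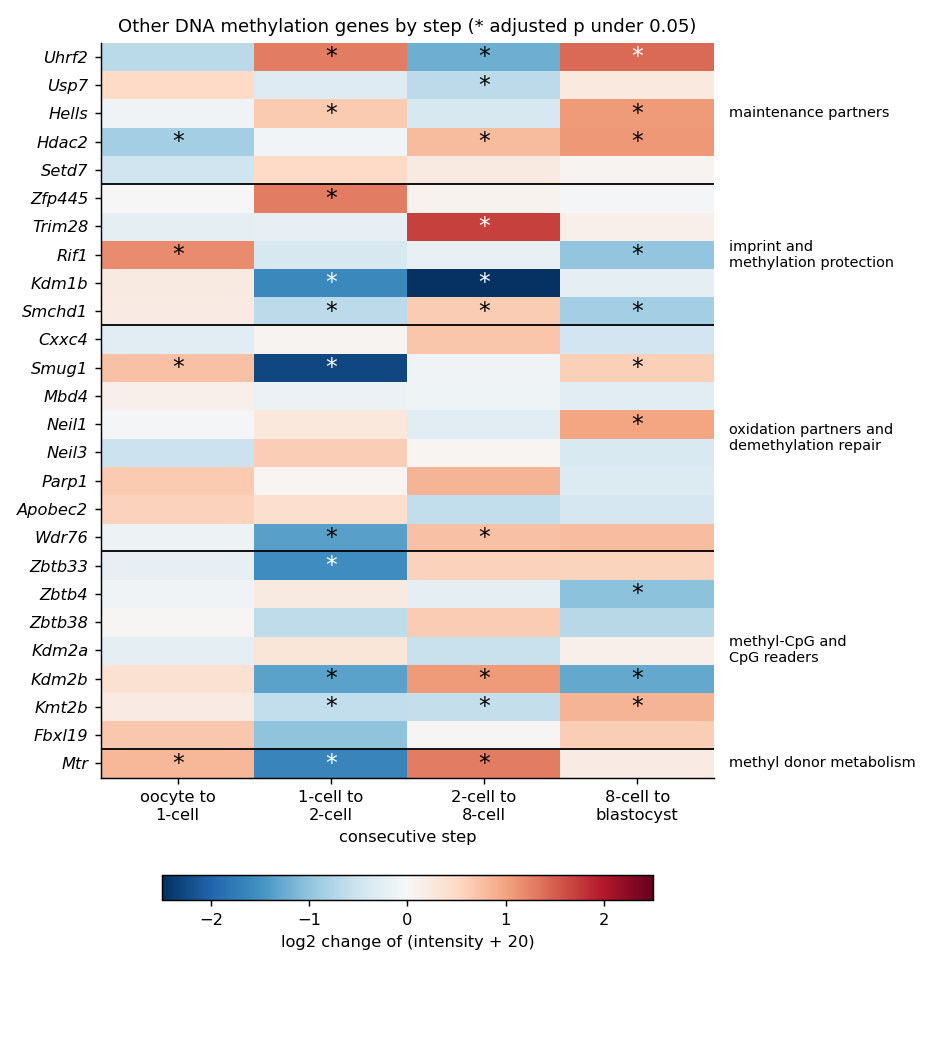
Log2 change of the 26 other measured DNA methylation genes (rows, grouped by list) over the 4 consecutive steps (columns), 1 probe set per gene; red is a rise, blue a fall, and an asterisk an adjusted p under 0.05. The deepest blue cells are Kdm1b at the 8-cell step (-2.47) and Smug1 at the 2-cell step (-2.27), and the deepest red is Trim28 at the 8-cell step (1.71).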

How the data were processed

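Stages and replicate numbers came from the sample titles. The deposited values are linear intensities, 1 per probe set, which the authors had scaled to a common mean: from the values, the mean after trimming 2% at each end is equal on all arrays. Neither scanner software nor probe summarization is given in the sources used here. Gene names are those of GEO's platform annotation, updated by Entrez identifier (14486 of 14661 found). No 2 arrays were copies: at least 99.7% of values differed. Stage means of log2(intensity + 20), where 20 is the table's 20th percentile, were fitted over all 20 arrays with limma 3.58.1 (R 4.3.3), an intensity trend and 15 residual degrees of freedom, tested on simulated data. An adjusted p under 0.05 was called. Named genes were all member probe sets, the 3 most alike per member by Pearson's r (1 symbol, not x_at, not a clone name), and up to 4 called list genes with the smallest p per step, some followed through other steps; Uhrf2 was added after its values were seen. A list gene was read from its brightest probe set. Alternatives were the pseudocount, filter, normalization, centring, trend, array weights, the stages fitted, probe set types, the replicate block and leaving out each array. Members and lists were chosen with earlier results of these data known. The number of arrays limits the precision.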

Additional observations from a re-analysis of the deposited data

Results flagged for a closer look

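An array apart from the rest of its stage was looked for in all 30 groups of 4 (6 probe sets at 5 stages) with Dixon's ratio. The ratio was taken on linear intensities and not on the log2 scale used for the changes. For normally distributed values it marks about 1 group in 20 by chance, and that distribution was not checked here. Both arrays found are of Tet3. At the 1-cell stage replicate 1 read 690.3 against at most 329 for the others (ratio 0.895), and in blastocysts replicate 2 read 171.4 against at most 43.2 (ratio 0.846).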

How the results depend on the processing

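No called change of these genes turned its sign under any alternative, and all 6 probe sets stayed called among the stages in each fit that kept them; without x_at and s_at probe sets Dnmt1 and Tet1 1429448_s_at could not be fitted. Under quantile normalization the fall of Tet3 from oocyte to the 8-cell stage was called (-1.19, adjusted p = 0.0326). With each array left out in turn, values ranged from 0.53 to 1.12 for Dnmt1 from 8-cell to blastocyst, from 0.29 to 1.04 for Tet2 1455300_at from 1-cell to 2-cell, from 1.04 to 1.24 for it from 8-cell to blastocyst, and from -1.83 to -1.07 for Tet3 from oocyte to blastocyst, each crossing the threshold as given in the text. The other DNA methylation genes called at the 8-cell step numbered 6 to 11 with an array left out, and 6 without x_at and s_at probe sets, where fewer genes are tested. With the replicate block no call of these genes changed (Dnmt1 from oocyte to 1-cell, adjusted p = 0.000941), and 1047 probe sets were called at that step instead of 1055. Between stages, the deviations of arrays of the same number correlated at -0.06 to 0.06, and those of different numbers at -0.07 to 0.10. No shared deviation was seen, but this cannot tell whether samples of the same number were collected together. Dim values limit Tet3 after the 1-cell stage, Tet1 before the 2-cell stage and Tet2 before the 8-cell stage. For Tet2 this holds above all for 1438781_at. Tet2 1455300_at reached the table's median on 3 of 4 oocyte arrays, 3 of 4 1-cell arrays and all 2-cell arrays.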

Other observations

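Probe sets of 1 gene gave opposite or unequal net changes for 3 other genes of DNA methylation, which were picked out after their values were seen. Usp7, a deubiquitinase that stabilises DNMT1 and UHRF1, has 5 tested probe sets: from oocyte to blastocyst 1438249_at rose by 0.82 log2 units (adjusted p = 0.00163), whereas 1437118_at changed by -1.05 (adjusted p = 0.000661) and 1454949_at by -3.04 (adjusted p = 2.86e-10), and the other 2 did not pass. Over the same span Mtr 1439811_at rose by 0.67 (adjusted p = 0.0082) and Mtr 1458532_at changed by -0.93 (adjusted p = 0.0149). For Wdr76, a reader of modified cytosine, 1455674_at changed by 0.02 (adjusted p = 0.964) and 1430304_at by -3.27 (adjusted p = 1.63e-10). The difference between probe sets was not itself tested for these genes.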
